A study of Homo sapiens with 4 samples.

Results

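The 9 genes described here are BNIP3, BNIP3L, FUNDC1, PINK1, NDUFA4L2, COX4I2, HIGD1A, LONP1 and MXI1, a set named for mitochondrial remodelling under low oxygen and for mitophagy. Each was taken as the row of the count table whose identifier equals its symbol, which gave 9 of 56304 genes, and 8 of them were among the 15529 genes with enough counts to be tested. The libraries were bulk RNAseq of MV3, an established and highly metastatic human melanoma line, carrying the nuclear label H2B-GFP in every sample. Spheroids of 50000 cells had grown in collagen I until day 2. The core was then removed with a 1 mm punch (2 libraries, core 1 and core 2), and the gel with the cells that had left it was removed with a 3 mm punch (2 libraries, invasion zone 1 and invasion zone 2). All libraries thus share the line, the label, the matrix and the time. The groups differ by zone and, with it, by the punch and the order of removal. The comparison asks which transcripts differ between cells that invade and those that stay in the core. The punches sorted cells only by where they lay in the plane of the gel, and a single cell line was used.

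Mitochondria that are damaged or no longer needed are enclosed by autophagosomes and digested, a process called mitophagy. It can start from receptors that sit in the outer mitochondrial membrane and bind ATG8 proteins of the autophagosome (BNIP3, BNIP3L and FUNDC1), or from the kinase PINK1, which gathers on depolarized mitochondria and marks them through ubiquitin. In low oxygen, the transcription factor HIF-1 binds short DNA elements in its target genes, several of which alter mitochondria: BNIP3 and BNIP3L promote their removal, NDUFA4L2 and COX4I2 are alternative forms of respiratory chain subunits, HIGD1A is a small inner membrane protein that binds respiratory complexes, LONP1 is a protease of the matrix, and MXI1 competes with MYC for their shared partner MAX. These roles are background, and oxygen, protein and mitochondrial mass were not measured in these libraries.

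The deposited values were raw counts, which summed to 36363358 in core 1, 14983135 in core 2, 37591782 in invasion zone 1 and 11789243 in invasion zone 2, so the libraries numbered 2 were the shallower in each zone. Levels are given as CPM, the counts of a gene on the per-million scale, with library totals adjusted by TMM factors (a trimmed mean of M-values), and differences as log2 fold changes of invasion zone over core, negative where the invasion zone was lower. The mitochondrially encoded genes, 37 in all, took between 1.06% and 1.72% of the counts. Of 7 melanocytic markers, SOX10 and TYR were at 0 in every library and MITF alone exceeded 1 CPM in each. These markers therefore did not by themselves show a melanocytic identity in this melanoma line. Of 6 markers of other cell types none exceeded 1 CPM in every library, and their summed level was 18.4 and 7.83 CPM in the core and 5.52 and 0.926 CPM in the invasion zone, nearly all of it PECAM1, an endothelial adhesion molecule. This sum was higher in the core, as were several of the genes below, and its part in their differences was not tested. CDH5, the other endothelial marker listed, had only 0 and 3 counts in the core and 4 and 0 in the invasion zone. Nothing in the labels says that the 2 libraries of a zone came from separate cultures, so p-values measure only the spread between these samples, which may be technical.

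BNIP3, BNIP3L and MXI1 were lower in invading cells than in the core, by 3.29-fold, 2.42-fold and 2.84-fold, and HIGD1A was higher by 1.72-fold. Their levels did not overlap between zones. FUNDC1, PINK1 and LONP1 differed by less. NDUFA4L2 was scarce, at 0.337 to 1.46 CPM, with only 4 counts in invasion zone 2, and COX4I2 was not detected beyond 1 count. At an adjusted p under 0.05 with at least a 2-fold difference, the quasi-likelihood test of edgeR called 0 of the 8 tested genes in either direction, and it called 0.0% of all genes tested as lower and 0.0% as higher. At an unadjusted p under 0.05, edgeR gave 3 of the 8 genes as lower in the invasion zone, BNIP3, BNIP3L and MXI1, where 13.2% of all genes were lower, and 1 as higher, HIGD1A, where 12.3% of all genes were higher. DESeq2, run as an alternative, called the same 3 genes lower (4.37% of the genes to which it gave an adjusted p) and called 0 higher (2.89% of those genes). With the replicate number as a block, edgeR also called these 3 genes lower, among 1147 genes called lower and 588 higher of 15529 tested. Whether a replicate number marks a shared gel is not stated.

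Neither invasion zone library reached the level of either core library for 6 of the 8 tested genes, BNIP3, BNIP3L, PINK1, NDUFA4L2, LONP1 and MXI1, against 30.3% of all genes tested. They lay above both core libraries for HIGD1A, against 28.1% of all genes tested, and the zones overlapped for FUNDC1. The median log2 fold change of the 8 genes was −0.71, beside −0.01 over all genes tested, and the median of their differences was −0.49 within replicate 1 and −0.95 within replicate 2. In a bulk sample, fewer cells with a transcript and less of the transcript per cell cannot be told apart. With 1 library left out in turn, the log2 fold change of BNIP3 ran from −1.81 to −1.62. It ran from −1.43 to −1.15 for BNIP3L and from −1.80 to −1.28 for MXI1.

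**Figure D1:**
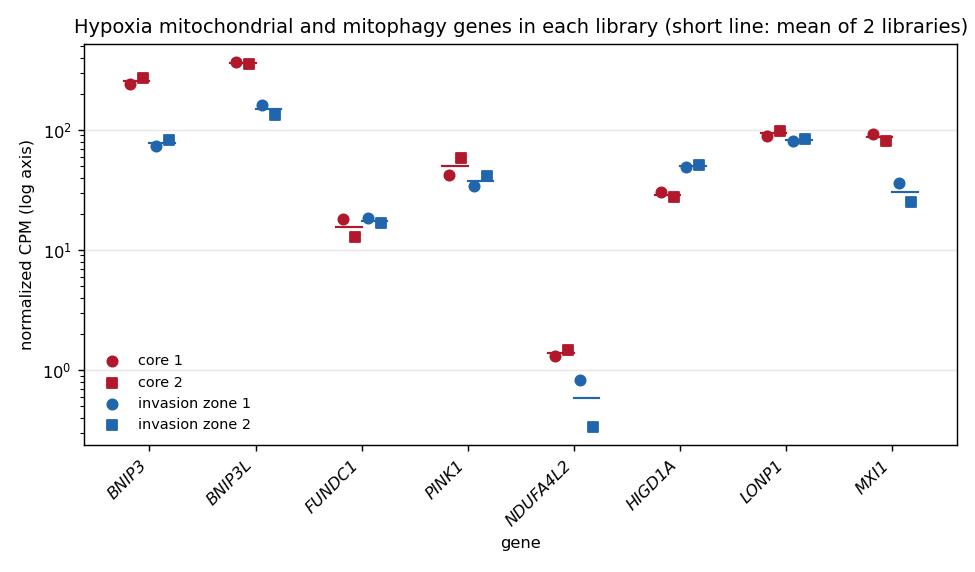
Normalized CPM (vertical log axis) of the 8 tested genes in each of the 4 libraries, with red for core, blue for invasion zone, circles for replicate 1, squares for replicate 2 and a short line at the mean of 2 libraries. BNIP3, BNIP3L and MXI1 show red points well above blue ones, HIGD1A shows the opposite order, and FUNDC1 shows overlapping zones.

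Of the receptors, BNIP3 had the clearest difference. It is a protein of the outer membrane related to BCL2 that binds ATG8 proteins through its cytosolic end, and it is a widely used marker of the transcriptional response to low oxygen. BNIP3 (ENSG00000176171) lies at chr10:131967684-131981967 on the minus strand of GRCh38. Its level was 241 and 271 CPM in core 1 and core 2 and 73.2 and 82.8 CPM in invasion zone 1 and invasion zone 2, so the lowest core library stood far above the highest invasion zone library. The zone means were 256 ± 21.0 CPM and 78.0 ± 6.81 CPM (SD, n = 2 each). The difference was nearly the same in both replicates, −1.72 within replicate 1 and −1.71 within replicate 2. The fitted log2 fold change was −1.72 (SE 0.15), with an edgeR p of 4.46e-05 that ranked 6 among 15529 genes and an adjusted p of 0.103. Across 11 alternative settings the adjusted p of BNIP3 ran from 2.55e-13 in DESeq2 to 0.128 in the older form of the edgeR test. BNIP3 has 39 pseudogene rows in the table, which together held 196 counts against 16450 for the gene (1.19%).

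The stretch upstream of the BNIP3 start is shown because the gene carried the strongest difference and because its RefSeq promoter window held matches to the letters that HIF-1 binds. The windows ran from 250 bases before to 50 bases after each RefSeq start (GRCh38.p14), and were searched on both strands for ACGTG and for GCGTG. The BNIP3 window held 6 matches, 2 of ACGTG and 4 of GCGTG, all of them before the start, and both ACGTG matches lay in a single CACGTG, a palindrome that is also the E-box read by MYC, MAX and MXI1. Bases −153 to −90 from the start, read 5′ to 3′ along the minus strand with the matches in capitals (CACGT and CACGC are the same letters on the other strand), were as follows.
BNIP3, chr10:131982013-131982076, minus strand: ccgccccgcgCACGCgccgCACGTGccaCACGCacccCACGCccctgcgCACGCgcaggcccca
Of 35116 RefSeq windows of this length, 21.4% held ACGTG, 36.5% held GCGTG, 48.4% held either and 7.26% held CACGTG. These shares count windows with at least 1 match. A LONP1 window held more matches than that of BNIP3, 7 against 6, and LONP1 had a log2 fold change of −0.18. A match of letters is a description of the sequence, and binding was not measured.

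BNIP3L, also called NIX, is the paralogue of BNIP3 and the receptor that clears mitochondria from maturing red cells. It was the most abundant of the 9 genes by CPM. Its level was 367 and 355 CPM in the core and 163 and 134 CPM in the invasion zone, and the zones did not overlap. The means were 361 ± 8.70 CPM and 149 ± 20.6 CPM (SD, n = 2 each). The log2 difference was −1.17 within replicate 1 and −1.40 within replicate 2, and the fitted value was −1.28 (SE 0.16), with an edgeR p of 0.000267 and an adjusted p of 0.112. The adjusted p over 11 alternatives ran from 1.16e-07 to 0.128. BNIP3L (ENSG00000104765) lies on the plus strand of chromosome 8 from 26383054 to 26505636, and 330 of its exonic bases overlap PNMA2 on the opposite strand, whose reads cannot be separated from it if the counting ignored strand.

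Per kilobase of the GENCODE canonical transcript, BNIP3 stood at 166 CPM and BNIP3L at 105 CPM in the core, and at 50.6 and 43.1 CPM in the invasion zone. On this scale BNIP3 exceeded BNIP3L by 1.47-fold and 1.71-fold in the core libraries. In the invasion zone libraries the ratio was 1.00 and 1.38, so the pair of paralogues stood closer together there. The ratio was lower in the invasion zone in both replicates.

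FUNDC1 is the other receptor, an outer membrane protein whose binding to ATG8 proteins is controlled by phosphorylation rather than mainly by transcription. FUNDC1 (ENSG00000069509, chrX:44523639-44542859, minus strand) stood at 18.2 and 12.9 CPM in the core and at 18.4 and 16.7 CPM in the invasion zone, and core 1 lay between the invasion zone libraries. Its log2 fold change was 0.17 (SE 0.23), with an edgeR adjusted p of 0.696, and it was 0.02 within replicate 1 and 0.37 within replicate 2. Without core 2 the value was −0.04. FUNDC1 thus did not show the difference seen in the other receptors. Its RefSeq window held 0 matches of either motif, as did the first window of MXI1, and a link between matches and levels was not tested.

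PINK1 starts the other, ubiquitin-dependent route. PINK1 (ENSG00000158828, chr1:20633458-20651511, plus strand) stood at 42.1 and 58.6 CPM in the core and at 34.1 and 41.2 CPM in the invasion zone. The zones were separated by less than 1 CPM, while the core libraries differed from each other by far more. The libraries of replicate 2 were the higher in both zones. The log2 fold change was −0.42 (SE 0.22), with an edgeR adjusted p of 0.286, and it was −0.31 and −0.51 within replicates. With the replicate number as a block, the log2 fold change was −0.40 and the edgeR adjusted p was 0.0157. Of its 4833 exonic bases, 1907 are shared with PINK1-AS on the opposite strand, which had 140 and 51 counts in the core and 137 and 38 in the invasion zone.

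**Figure D2:**
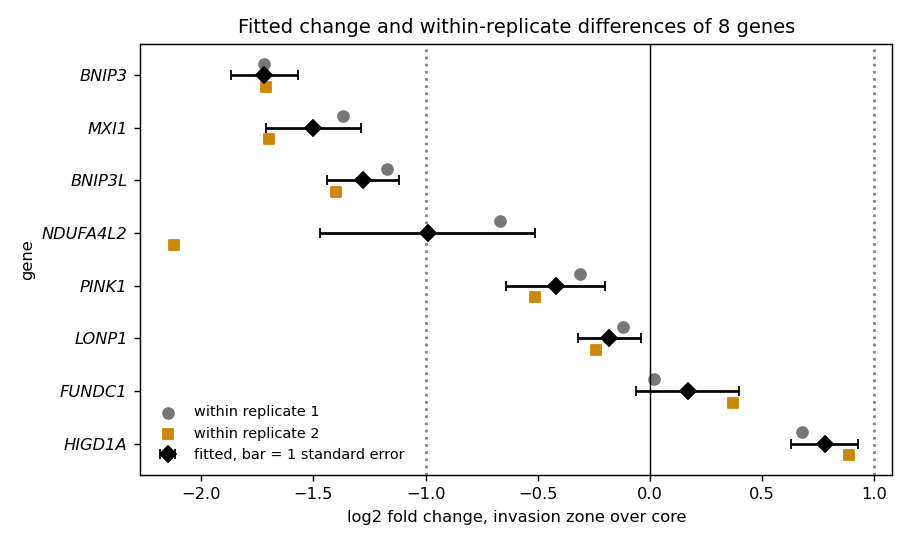
Log2 fold change of invasion zone over core (horizontal axis) for the 8 tested genes, with black diamonds for the edgeR estimate, bars of 1 standard error, grey circles for the difference within replicate 1, orange squares for that within replicate 2, and dotted lines at a 2-fold difference. BNIP3, MXI1 and BNIP3L lie beyond the left dotted line in both replicates, while NDUFA4L2 spans −0.67 to −2.12.

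The receptors act with a wider set of mitophagy proteins, for which 17 genes were listed and 16 tested. In edgeR 0 of these were called, and at an unadjusted p under 0.05 there were 4 lower and 2 higher in the invasion zone, where 13.2% and 12.3% of all genes tested were lower and higher. The median log2 fold change was −0.20. USP30, a deubiquitinase of the outer mitochondrial membrane, stood at 29.0 and 26.9 CPM in the core and 20.5 and 15.8 CPM in the invasion zone, which gave a log2 fold change of −0.61 (SE 0.20, edgeR adjusted p of 0.150). OMA1, the inner membrane protease that responds to lost membrane potential, had a log2 fold change of −0.52 (SE 0.18) and an edgeR adjusted p of 0.164. PGAM5 went the other way. This phosphatase, which acts on FUNDC1, stood at 40.6 and 66.3 CPM in the core and at 94.1 and 123 CPM in the invasion zone, which gave a log2 fold change of 1.02 (SE 0.27, edgeR adjusted p of 0.125), and DESeq2 called it higher.

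Of the 6 ATG8 genes, whose proteins are the docking partners of the receptors, 5 were tested and 0 were called by edgeR or by DESeq2, with 2 lower (13.2% of all genes) and 0 higher (12.3%) at an unadjusted p under 0.05 in edgeR. The median log2 fold change was −0.57, and 4 of the 5 were lower in the invasion zone without overlap, as were 30.3% of all genes tested. GABARAPL1 stood at 18.5 and 13.9 CPM in the core and at 9.90 and 6.23 CPM in the invasion zone. Its log2 fold change was −0.98 (SE 0.30, edgeR adjusted p of 0.142). GABARAPL2 and MAP1LC3A had log2 fold changes of −0.57 (SE 0.22) and −0.71 (SE 0.30), with edgeR adjusted p of 0.188 and 0.207. The exception was GABARAP itself, listed at 0.730 to 1.60 CPM with overlapping zones, and 691 of its 1951 exonic bases are shared with another annotated gene on the same strand, a part that unique counting per gene can leave uncounted.

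The alternative respiratory subunits were scarce. NDUFA4L2 replaces or accompanies NDUFA4 in low oxygen and is induced strongly by HIF-1 in many cell types. NDUFA4L2 (ENSG00000185633, chr12:57234903-57240715, minus strand) had 47 and 22 counts in the core and 31 and 4 counts in the invasion zone, or 1.31, 1.46, 0.827 and 0.337 CPM. The exact 95% Poisson intervals, which cover counting error only, were 0.965 to 1.75 and 0.915 to 2.21 CPM in the core and 0.562 to 1.17 and 0.0917 to 0.862 CPM in the invasion zone. The interval of invasion zone 1 overlapped those of both core libraries, so the separation between zones rested on few reads. The fitted log2 fold change was −0.99 (SE 0.48), with an edgeR adjusted p of 0.258, and DESeq2 gave it no adjusted p. It was −2.01 without invasion zone 1 and −0.72 without invasion zone 2, so its size depended on which invasion zone library was kept.

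NDUFA4, the usual subunit, stood at 74.7 CPM in both core libraries and at 103 and 97.9 CPM in the invasion zone, which gave a log2 fold change of 0.43 (SE 0.13, edgeR adjusted p of 0.141). Per kilobase, NDUFA4 exceeded NDUFA4L2 by 26.4-fold and 23.7-fold in the core and by 57.8-fold and 135-fold in the invasion zone. The usual form was therefore the main one in every library, and by more in the invasion zone, with the ratio of invasion zone 2 resting on 4 counts of NDUFA4L2.

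COX4I2, the low-oxygen form of subunit 4 of cytochrome c oxidase, is normally restricted to lung and a few other tissues. COX4I2 (ENSG00000131055, chr20:31637912-31645006, plus strand) had 1 count in core 1 and 0 in the other libraries, and was not tested. A limit of 3 counts corresponds to 0.0838 and 0.199 CPM in the core and to 0.0801 and 0.252 CPM in the invasion zone. Its usual form COX4I1 was among the abundant transcripts, with 367 and 370 CPM in the core and 415 and 424 CPM in the invasion zone, which gave a log2 fold change of 0.18 (SE 0.13, edgeR adjusted p of 0.429). A switch between the forms was not detectable at this depth in either zone.

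HIGD1A was the gene of the set that was higher in the invasion zone. The protein is a small membrane component associated with the respiratory chain, and the gene is described as inducible by low oxygen and by low glucose. Its level was 30.5 and 27.4 CPM in the core and 48.8 and 50.9 CPM in the invasion zone, with both zones narrow and well apart. The means were 29.0 ± 2.23 CPM and 49.9 ± 1.49 CPM (SD, n = 2 each). The log2 difference was 0.68 within replicate 1 and 0.89 within replicate 2, and the fitted value was 0.78 (SE 0.15), with an edgeR p of 0.00267 and an adjusted p of 0.112. Among all genes tested 8.27% had a larger log2 fold change. The adjusted p over 11 alternatives ran from 0.000916 to 0.195, and its fold stayed under 2 in each of them. HIGD2A, its relative, had a log2 fold change of 0.17 (SE 0.15, edgeR adjusted p of 0.511), and the per-kilobase ratio of HIGD1A to HIGD2A was 0.194 and 0.169 in the core and 0.282 and 0.274 in the invasion zone.

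HIGD1A (ENSG00000181061) lies at chr3:42782908-42804490 on the minus strand, and 543 of its 3024 exonic bases are shared with other genes on that strand. Its 17 pseudogene rows held 34 counts, or 0.863% of the gene's 3940. Its upstream sequence is shown because it held the same motifs as BNIP3 although the zones differed in the opposite direction. The window held 3 matches, 1 of ACGTG and 2 of GCGTG that overlap by 1 base, and 0 of CACGTG. Bases −189 to −60 from the start, with the matches in capitals as above, read as follows.
HIGD1A, chr3:42804550-42804679, minus strand: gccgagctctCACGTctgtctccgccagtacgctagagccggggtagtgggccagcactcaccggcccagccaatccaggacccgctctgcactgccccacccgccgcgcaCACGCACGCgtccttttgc

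Around these subunits, 16 genes for respiratory counterparts and regulators were listed and 12 were tested, with 0 called by edgeR, 3 lower and 3 higher at an unadjusted p under 0.05 (13.2% and 12.3% of all genes), and a median log2 fold change of −0.04. MIR210HG, the long noncoding RNA that hosts the low-oxygen microRNA miR-210, differed most. It stood at 37.4 and 41.5 CPM in the core and at 5.07 and 2.52 CPM in the invasion zone. Its log2 fold change was −3.28 (SE 0.32, edgeR adjusted p of 0.109), and DESeq2 called it lower. The difference was −2.88 within replicate 1 and −4.04 within replicate 2. The fitted value was −3.96 without invasion zone 1 and −2.96 without invasion zone 2, so its size depended on which invasion zone library was kept. PDK3, a kinase that restrains pyruvate dehydrogenase, had a log2 fold change of −0.87 (SE 0.27, edgeR adjusted p of 0.143). CHCHD4, which imports small cysteine-rich proteins into the intermembrane space, stood at 16.6 and 19.2 CPM in the core and at 28.3 and 36.9 CPM in the invasion zone, which gave a log2 fold change of 0.86 (SE 0.21, edgeR adjusted p of 0.118). MIR210HG and PDK3 were thus on the side of BNIP3, and CHCHD4 on the side of HIGD1A.

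LONP1 degrades oxidized and surplus matrix proteins, including a usual form of a cytochrome c oxidase subunit in low oxygen. LONP1 (ENSG00000196365, chr19:5691834-5720572, minus strand) stood at 89.0 and 98.4 CPM in the core and at 81.7 and 83.4 CPM in the invasion zone. The zones did not overlap, but the difference was small, with a log2 fold change of −0.18 (SE 0.14) and an edgeR adjusted p of 0.442. It was −0.12 within replicate 1 and −0.24 within replicate 2. LONP1 has a pair of RefSeq windows, with 7 matches and 1 match of the motifs.

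Other proteases and chaperones were listed beside LONP1, all of mitochondria except LONP2, the Lon protease of peroxisomes. All 14 listed genes were tested, and 0 were called by edgeR or by DESeq2. At an unadjusted p under 0.05, 0 were lower (13.2% of all genes) and 4 were higher (12.3%). Without overlap, 1 was lower (30.3% of all genes) and 8 were higher (28.1%). The median log2 fold change was 0.30, and it was 0.42 without LONP2, an exclusion chosen after the data were seen, with 7 of the remaining 13 higher without overlap. HSPD1, the matrix chaperonin, stood at 235 and 373 CPM in the core and at 449 and 593 CPM in the invasion zone, which gave a log2 fold change of 0.78 (SE 0.27, edgeR adjusted p of 0.159). HSPE1, its co-chaperonin, had a log2 fold change of 0.67 (SE 0.20, edgeR adjusted p of 0.138). PITRM1, which degrades presequences and other peptides in the matrix, stood at 71.1 and 82.4 CPM in the core and at 119 and 121 CPM in the invasion zone, with a log2 fold change of 0.65 (SE 0.14, edgeR adjusted p of 0.112). The log2 fold change of LONP1 lay below that of every gene on this list.

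MXI1 encodes a repressor that takes MAX away from MYC, and in low oxygen it is known as a HIF target through which mitochondrial biogenesis is restrained. Its level was 92.7 and 81.5 CPM in the core and 35.9 and 25.1 CPM in the invasion zone, again without overlap. The means were 87.1 ± 7.96 CPM and 30.5 ± 7.63 CPM (SD, n = 2 each). The log2 difference was −1.37 within replicate 1 and −1.70 within replicate 2, and the fitted value was −1.50 (SE 0.21), with an edgeR p of 0.000564 and an adjusted p of 0.112. The adjusted p over 11 alternatives ran from 1.54e-06 to 0.128.

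MXI1 (ENSG00000119950) lies at chr10:110207605-110287365 on the plus strand, and 205 of its 5907 exonic bases are shared with a gene on the opposite strand. It has several RefSeq starts. The window of the first held 0 matches of the motifs and those of the next starts held 2 each. The second start is shown, since MXI1 was the other gene with a window and a difference beyond 2-fold, and its window held 1 match of each motif. Bases −137 to −99 from that start, in the same notation, read as follows.
MXI1, chr10:110210094-110210132, plus strand: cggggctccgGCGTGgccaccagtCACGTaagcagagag
Windows were held for 5 of the 9 genes, BNIP3, FUNDC1, HIGD1A, LONP1 and MXI1, with 8 windows in all.

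MYC, the factor that MXI1 opposes, differed in the other direction. It stood at 82.2 and 105 CPM in the core and at 158 and 182 CPM in the invasion zone, which gave a log2 fold change of 0.87 (SE 0.18, edgeR adjusted p of 0.112). Per kilobase, the ratio of MXI1 to MYC was 1.21 and 0.835 in the core and 0.243 and 0.148 in the invasion zone, so that the transcripts were near parity in the core and MYC was several times the higher in the invasion zone. MAX, their shared partner, stood at 164 to 182 CPM in all 4 libraries. Of the 11 listed genes of this network 9 were tested, 0 were called by edgeR, and 1 was lower and 1 higher at an unadjusted p under 0.05 (13.2% and 12.3% of all genes). MXD4, a repressor of the same family as MXI1, stood at 281 and 224 CPM in the core and at 156 and 92.2 CPM in the invasion zone, which gave a log2 fold change of −1.02 (SE 0.28, edgeR adjusted p of 0.126), and DESeq2 called it lower. MXD3, a further family member, had a log2 fold change of 0.84 (SE 0.37, edgeR adjusted p of 0.221), and the median log2 fold change of the list was 0.00.

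**Figure D3:**
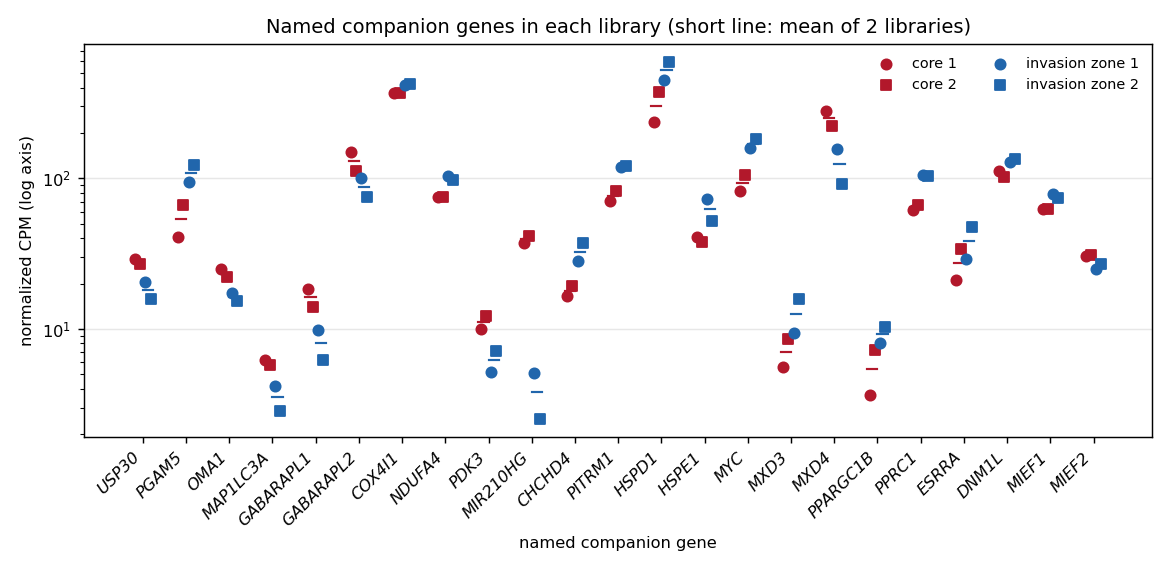
Normalized CPM (vertical log axis) of the 23 named companion genes in each of the 4 libraries, with the colours and symbols of the plot of the 9 genes. MIR210HG shows the widest gap, with both core libraries above 37 CPM and both invasion zone libraries at or below 5.07 CPM, and MYC, PGAM5 and CHCHD4 show blue points above red ones.

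Biogenesis and shape of mitochondria were described by 2 further lists. For biogenesis 9 of 10 genes were tested, 0 were called by edgeR or by DESeq2, 0 were lower (13.2% of all genes) and 2 higher (12.3%) at an unadjusted p under 0.05, and the median log2 fold change was 0.40. The untested gene was PPARGC1A, the best known coactivator of biogenesis, with 8 and 19 counts in the core and 0 and 1 in the invasion zone, so the little that was counted of it lay mostly in the core. PPRC1, a coactivator of nuclear genes for mitochondrial proteins, stood at 62.0 and 66.9 CPM in the core and at 105 and 103 CPM in the invasion zone, which gave a log2 fold change of 0.69 (SE 0.13, edgeR adjusted p of 0.112). PPARGC1B, its relative, had a log2 fold change of 0.80 (SE 0.39, edgeR adjusted p of 0.261), and ESRRA, a nuclear receptor that these coactivators serve, had a value of 0.49 on the same scale (SE 0.33, edgeR adjusted p of 0.399) with overlapping zones. For fission and fusion all 8 genes were tested, 0 were called by edgeR or DESeq2, 0 passed an unadjusted p of 0.05 in either direction, and the median log2 fold change was 0.13. DNM1L, the fission GTPase, had a log2 fold change of 0.31 (SE 0.13), and that of its adaptors MIEF1 and MIEF2 was 0.29 (SE 0.13) and −0.26 (SE 0.16).

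The 7 lists together held 82 companion genes, of which 73 were tested and 0 were called by edgeR. DESeq2 called 2 lower (4.37% of the genes to which it gave an adjusted p) and 1 higher (2.89% of those genes). At an unadjusted p under 0.05 in edgeR, 10 were lower (13.2% of all genes) and 12 higher (12.3%). Without overlap, 21 were lower (30.3% of all genes) and 30 higher (28.1%), and the median log2 fold change was 0.11. BNIP3, BNIP3L and MXI1 lay below every companion gene other than MIR210HG, and HIGD1A lay among the upper values of the companions.

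**Figure D4:**
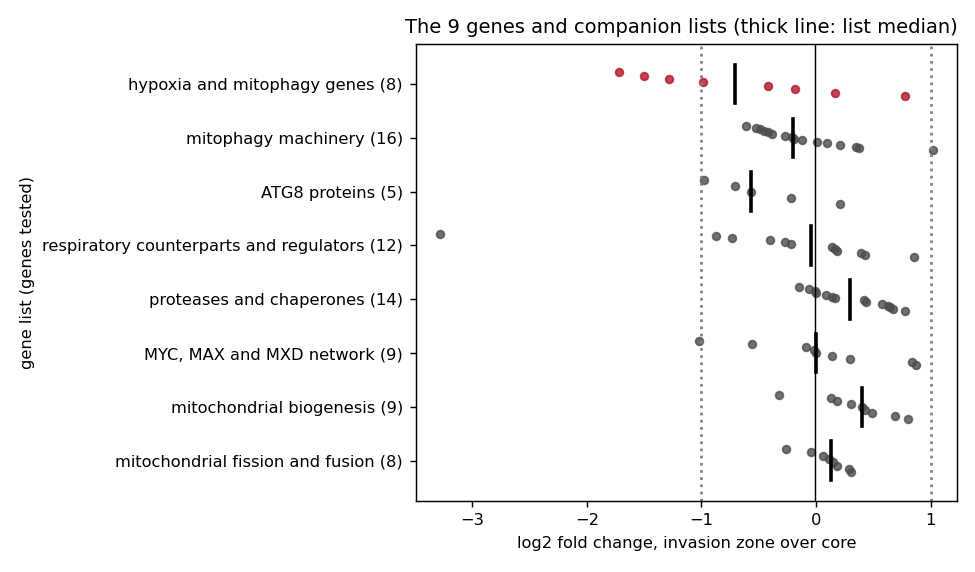
Log2 fold change of invasion zone over core (horizontal axis) for each tested gene of the set (red) and of 7 companion lists (grey), with the number tested in brackets, a thick line at each list's median and dotted lines at a 2-fold difference. The set has a median of −0.71 and 3 genes beyond the left dotted line, while the list medians run from −0.57 for ATG8 proteins to 0.40 for biogenesis.

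The 9 genes also differed widely in level. Per kilobase of canonical transcript, the order in the core was BNIP3, BNIP3L, LONP1, MXI1, PINK1, FUNDC1, HIGD1A and NDUFA4L2, with libraries of neighbours overlapping only for PINK1 and FUNDC1. In the invasion zone the order was BNIP3, BNIP3L, LONP1, HIGD1A, FUNDC1, PINK1, MXI1 and NDUFA4L2, with no overlap between neighbours, although BNIP3 at 47.5 CPM per kilobase in invasion zone 1 was next to BNIP3L at 47.2 in the same library. MXI1 moved from 25.1 CPM per kilobase in the core, above PINK1, to 8.78 in the invasion zone, below it. HIGD1A moved from 10.6 to 18.3 CPM per kilobase, past FUNDC1 and PINK1. These levels use the length of 1 transcript per gene, and which transcripts the cells made was not tested.

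Likeness to BNIP3 was measured as the Euclidean distance between log2 CPM values centred over the 4 libraries, with 2 libraries per zone setting most of the distance. A small count was added to every value before the logarithm, which shrinks the differences of scarce genes. Of the other 7 tested genes, BNIP3L was nearest at 0.561, with 113 other genes nearer than it, and MXI1 followed at 0.58, with 128 nearer. NDUFA4L2 stood at 1.06, PINK1 at 1.33, LONP1 at 1.54, FUNDC1 at 1.98 and HIGD1A at 2.51. Outside all lists the nearest genes were RAET1G at 0.0407, RHOV at 0.156, ELOVL3 at 0.157, PRRT2 at 0.202 and SLC2A3 at 0.214. The first 4 were of low level, at most 3.32 CPM in any library, so the added count and counting error weigh on their distances. SLC2A3, the glucose transporter GLUT3, was better counted, with 28.3 and 34.7 CPM in the core and 8.97 and 8.67 CPM in the invasion zone, which gave a log2 fold change of −1.83 (SE 0.20, edgeR adjusted p of 0.112).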

How the data were processed

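Bulk RNAseq was available for 4 libraries, 2 of the core and 2 of the invasion zone. The authors took total RNA through a SMARTer ultra-low input kit, removed ribosomal RNA reads with Bowtie, aligned to hg38 with STAR at default settings, and deposited raw counts of uniquely mapped reads per gene from HTSeq. For tool versions, annotation release and strandedness, nothing was given in the sources used here. Of 56306 rows, 2 repeated rows without counts were left out, and 0 columns of values were unused.

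In R 4.3.3 with edgeR 4.0.16, genes with 10 counts at the median depth in at least 2 libraries and 15 in total were kept (15529 genes), TMM factors ran from 0.985 to 1.009, and zones were compared by glmQLFit and glmQLFTest without a replicate term, with Benjamini-Hochberg adjustment over all genes tested. Calls required at least a 2-fold difference with an adjusted p under 0.05. The standard error was the log2 fold change divided by the root of F. DESeq2 1.42.0 and limma 3.58.1 served as alternatives, beside RLE scaling, other count filters, the older quasi-likelihood form, leaving out each library, a replicate block, unadjusted p and no fold minimum. The procedure was also run on simulated counts with less spread between libraries than these data, so that run does not show how it performs here. Libraries of a zone differed by far more than sampling noise, with chi-square per degree of freedom of 38.5 in the core and 36.3 in the invasion zone.

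The 9 genes and all lists were chosen with earlier results of these data known. Named genes were the 9, COX4I1 and NDUFA4, the 3 tested genes with the largest absolute log2 fold change of each companion list, and the 5 genes outside all lists nearest to BNIP3. HIGD2A, MAX, GABARAP, LONP2, PPARGC1A and the markers were named after their values were seen. Positions and canonical transcript lengths came from GENCODE release 44 on GRCh38, with 98.1% of identifiers found. Promoter windows came from RefSeq on GRCh38.p14. The values of 1 other listed gene are not reported here.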

Additional observations from a re-analysis of the deposited data

How the results depend on the processing

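edgeR with TMM scaling called 0 genes at an adjusted p under 0.05 and at least 2-fold, with a smallest adjusted p of 0.103. The counts stayed at 0 for all genes, the 9 genes and the companions under RLE scaling, at least 10 counts in every library, limma voom, the older quasi-likelihood form and no fold minimum. Elsewhere they moved. Without the low-count filter (32869 genes tested), 81 genes were called higher and 191 lower in the invasion zone, DESeq2 called 353 and 534, and an unadjusted p with the fold minimum gave 495 and 995. With 1 library left out, the range was 8 to 693 higher and 108 to 969 lower, the lone library of a zone being assumed to vary like the other zone, with the fewest calls without core 1. In all of these settings the calls among the 9 genes were 3 lower, BNIP3, BNIP3L and MXI1, and 0 higher. Companions called numbered 1 without the filter (MIR210HG), 3 in DESeq2 and at the unadjusted p (MIR210HG, MXD4 and PGAM5), and, with a library left out, 1 without core 1 or without invasion zone 2 (MIR210HG), 6 without invasion zone 1 and 7 without core 2. The cause of these differences was not tested.

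The zones share replicate numbers, and the dissection took both zones from the same gel, but it is not stated whether a replicate number marks such a gel. The deviations of same-numbered libraries from their zone means correlated at 0.57 across genes, over 2 pairs. With the replicate number as a block, 588 genes were called higher and 1147 lower, with 3 of the 9 genes lower (again BNIP3, BNIP3L and MXI1, with log2 fold changes of −1.72, −1.28 and −1.52) and 3 companions. PINK1 and HIGD1A also passed an adjusted p under 0.05 in that fit, at 0.0157 and 0.000916, with less than a 2-fold difference.

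Of 340 single-gene values over 31 genes, 298 kept their direction and side of the threshold, and 41 kept their direction and came to be called. The main fit called 0 genes, so no call could be lost. The 1 value that turned direction was of FUNDC1, whose range with 1 library left out was −0.04 (without core 2) to 0.46 (without core 1). Depth limits NDUFA4L2 and COX4I2 most.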
